A study of Mus musculus with 9 samples.

Results

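The genes described here are the brush border disaccharidases and the sugar transporters of the enterocyte, the absorptive cell of the small intestine. The set was defined by name and has 8 members: the disaccharidase genes Lct, Sis, Treh and Mgam, and the transporter genes Slc5a1, Slc5a4a, Slc2a5 and Slc2a2. A gene was read through probe sets annotated to that symbol alone, and the brightest of them stood for it. By this rule 7 of the 8 members were measured, by 8 probe sets, among 18193 genes in all. No probe set carried the symbol Sis alone, and Sis was not analysed here. All 7 measured members passed the filter on dim probe sets, as did 10977 of the 18193 genes.

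Digestion of carbohydrate ends at the brush border, the carpet of microvilli on the enterocyte, where anchored disaccharidases split short sugars into glucose, galactose and fructose. Glucose and galactose then enter the cell with sodium through SGLT1, fructose enters through GLUT5, and all of them can leave toward the blood through GLUT2 in the basolateral membrane. In mammals these functions are concentrated in the upper part of the small intestine, and some of their genes are known targets of GATA and CDX transcription factors.

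The samples are mucosal scrapings from male mice of the inbred strain C57Bl/6J, aged 9 weeks when the diets began. Groups were 3 equal parts of the small intestine, with SI3 the distal part, SI2 the middle part and SI1 the part next to the stomach. All animals had eaten a high-fat diet for 2 weeks. The fat was palm oil in HF-PO, olive oil in HF-OO and safflower oil in HF-SO, with the P/S values in the labels ascending in that order. For each part and diet the RNA of 6 mice was pooled and hybridised to 1 Affymetrix array, so the 9 arrays hold 3 pools per segment and 1 pool per diet and segment. Every group therefore shares the high-fat feeding, and a low-fat diet was not analysed here. Values are MAS5 signal, a linear intensity scaled by the submitters, and differences are on the log2(signal + 16) scale. Because 1 set of mice supplied all segments of a diet, segments were compared with limma with the pool as a block, adjusted over 22519 probe sets, and an adjusted p under 0.05 was called. Precision is limited by the number of arrays.

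The scrapings carried epithelial RNA in every segment: the 12 genes of epithelial structure, such as Vil1 of the microvillus core and the keratin Krt8, summed to 239268 to 248233 in SI3, 203873 to 213669 in SI2 and 183687 to 214828 in SI1. Exocrine pancreas genes summed to 3801.6 to 5409.5 in SI3 and 3170.6 to 3793 in SI2, against 37232 to 48514 in SI1. Most of the SI3 and SI2 sums was the signal of Clps, at 3121 to 4863 in SI3 and 2405 to 3060 in SI2. In SI1 Clps read 3579 to 4696. The SI1 array of HF-PO stood apart, since its 7 measured stomach genes summed to 7115 while the other SI1 arrays had 2119 in HF-OO and 1848 in HF-SO. That array also had the lowest signal of the 3 SI1 arrays for 11 of the 12 epithelial genes. In scraped tissue, fewer enterocytes and less of an RNA per enterocyte cannot be told apart.

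The promoters of 4 members are shown because the called drops of Lct and Mgam lay in different steps along the intestine, while Slc2a2 and Slc2a5 had the largest log2 falls between its ends. Each run covers 250 bases before and 50 bases after the RefSeq start of transcription on GRCm38.p6, written along the gene. Lct lies at chr1:128328269-128328568 on the minus strand, Mgam at chr6:40628581-40628880 on the plus strand, Slc2a2 at chr3:28697653-28697952 on the plus strand and Slc2a5 at chr4:150119094-150119393 on the plus strand. Capitals mark, on either strand, GATAA (GATA factors), TTTAT (the CDX core) and CACGTG (the E-box that carbohydrate-responsive factors can use).
Lct: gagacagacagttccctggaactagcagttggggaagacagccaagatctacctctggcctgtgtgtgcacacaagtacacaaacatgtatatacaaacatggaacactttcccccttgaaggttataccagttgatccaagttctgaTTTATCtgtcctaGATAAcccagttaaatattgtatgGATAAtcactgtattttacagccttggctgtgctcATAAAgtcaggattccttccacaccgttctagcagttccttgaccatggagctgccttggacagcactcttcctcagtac
Mgam: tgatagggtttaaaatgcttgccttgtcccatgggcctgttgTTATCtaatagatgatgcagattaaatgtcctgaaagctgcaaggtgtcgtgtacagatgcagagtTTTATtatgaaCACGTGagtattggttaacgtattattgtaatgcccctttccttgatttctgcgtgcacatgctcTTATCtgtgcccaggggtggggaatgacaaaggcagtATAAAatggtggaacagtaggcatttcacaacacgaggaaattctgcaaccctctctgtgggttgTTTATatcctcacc
Slc2a2: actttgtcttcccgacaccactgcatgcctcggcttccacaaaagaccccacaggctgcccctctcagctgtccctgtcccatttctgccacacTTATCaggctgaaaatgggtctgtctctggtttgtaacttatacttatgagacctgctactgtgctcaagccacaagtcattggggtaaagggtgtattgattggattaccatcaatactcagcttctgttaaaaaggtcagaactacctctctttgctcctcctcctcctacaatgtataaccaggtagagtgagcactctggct
Slc2a5: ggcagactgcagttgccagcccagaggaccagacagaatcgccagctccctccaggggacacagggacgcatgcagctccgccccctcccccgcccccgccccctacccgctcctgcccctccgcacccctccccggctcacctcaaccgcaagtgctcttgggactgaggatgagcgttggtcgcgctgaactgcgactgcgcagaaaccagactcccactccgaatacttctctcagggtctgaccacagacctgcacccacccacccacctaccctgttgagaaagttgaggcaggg
The Lct window held 3 GATAA and 2 TTTAT matches, and the first of each overlapped in the run TTTATC. The Mgam window held 2 GATAA, 3 TTTAT and 1 CACGTG match. Slc2a2 had 1 GATAA match, read as TTATC, and the Slc2a5 window, with 65.3% G and C, had 0 matches to the 3 motifs. Among the members not shown, the Sis window held 4 TTTAT matches, Slc5a4a had 1, Slc5a1 had 1 CACGTG match and Treh had 0. Such short words are common: of 32851 promoter windows of this length, 25.4% held GATAA, 40.0% TTTAT and 7.15% CACGTG. A match describes the letters only.

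Setting SI3 against SI1 shows how genes of sugar digestion and uptake differ between the ends of the small intestine. All 7 measured members were lower in SI3, where 19.2% of the probe sets tested were called lower and 44.3% were called in either direction. The share called lower was 26.2% among the 3865 probe sets at least as bright as Slc5a4a, the dimmest member. The members' median log2 change was -1.50, against 0.07 over all genes tested. The falls differed widely in size, with a steep group made of the facilitated transporters Slc2a5 and Slc2a2, a middle group of Treh and Slc5a4a, and a shallow group of Lct, Mgam and Slc5a1. For all 7 members the SI3 arrays lay below the SI1 arrays without overlap, a separation in that direction shown by 23.5% of probe sets.

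**Figure D1:**
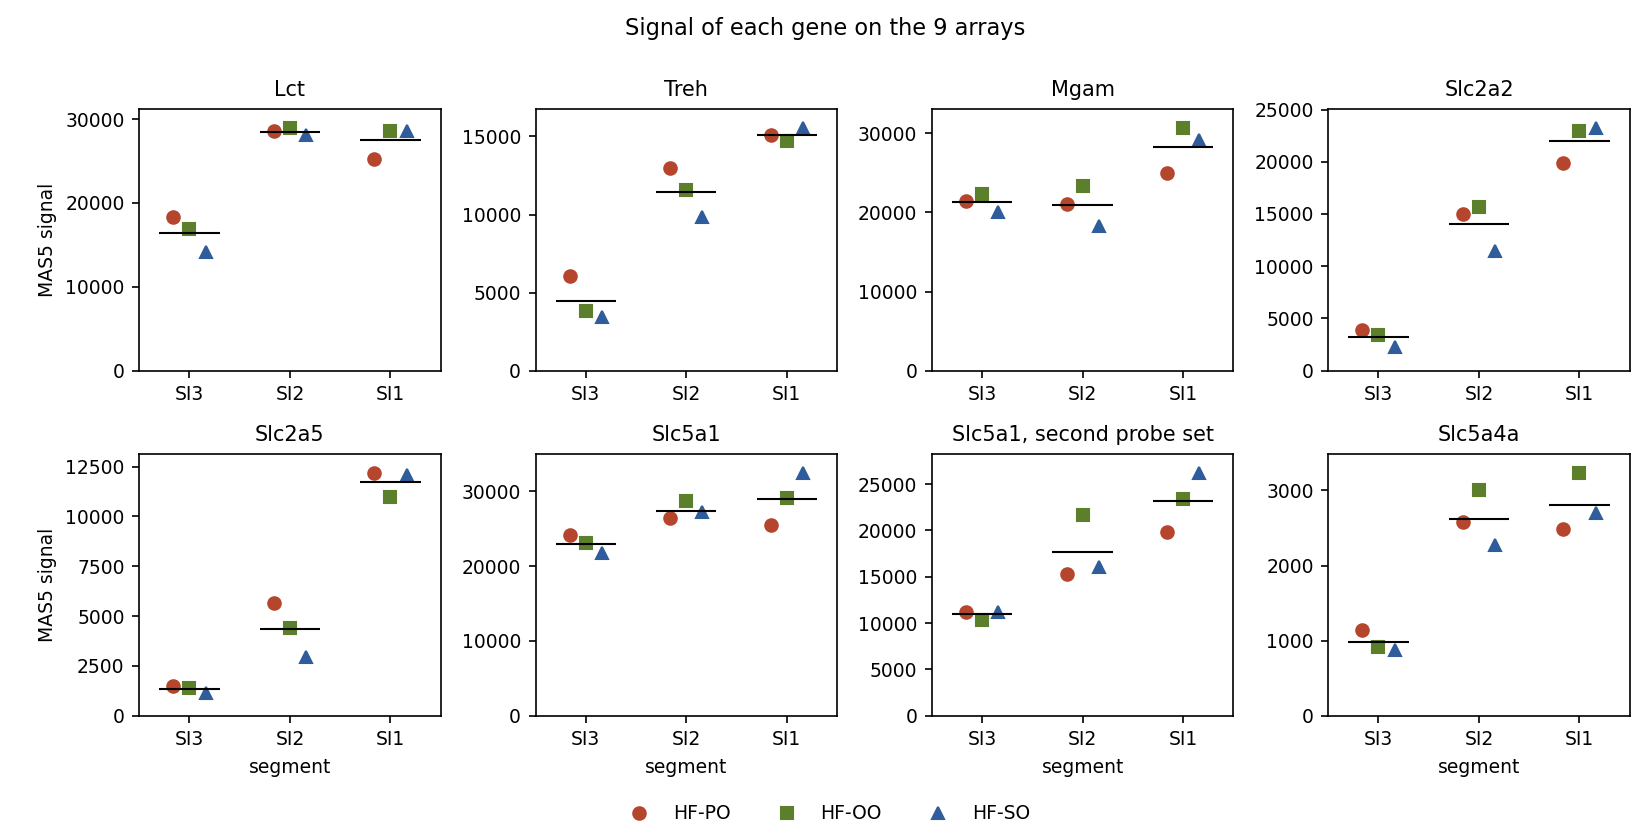
MAS5 signal for each of the 7 measured genes, and for the second Slc5a1 probe set, on the 9 arrays. Each point is 1 array of pooled RNA, shapes mark the diets, the line is the mean of the 3 arrays of a segment, and each panel has its own axis from 0. SI3 lies below SI1 in every panel, with the largest fold differences in Slc2a5 and Slc2a2, while Mgam has about the same mean in SI3 and SI2.

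Among the disaccharidases, Lct encodes lactase, which splits milk sugar. Its signal in SI3 was 18286 in HF-PO, 16889 in HF-OO and 14131 in HF-SO. In SI2 it was 28543, 28921 and 28069 in the same order of diets, and in SI1 it was 25241, 28564 and 28604. SI3 thus lay below both other segments, while SI2 and SI1 overlapped. Lct fell by 0.75 on the log2 scale in SI3 relative to SI1 (SE 0.11, limma adjusted p = 0.0022), a 1.68-fold difference.

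Treh encodes trehalase, which splits the disaccharide of fungi and insects. SI3 signals were 6068 in HF-PO, 3807 in HF-OO and 3461 in HF-SO. In SI2 it was 12957, 11559 and 9825, and in SI1 it was 15094, 14732 and 15528. The 3 segments did not overlap, and the spread in SI3 (SD 1416 around a mean of 4445, n = 3) came from the HF-PO array, which lay well above the others. Treh fell by 1.81 in SI3 relative to SI1 (SE 0.16, limma adjusted p = 0.000195), a 3.50-fold difference.

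Mgam encodes maltase-glucoamylase, which releases glucose from starch fragments. Mgam read 21475 in HF-PO, 22360 in HF-OO and 20101 in HF-SO in SI3. The SI2 arrays gave 21044, 23359 and 18282, and the SI1 arrays gave 24953, 30653 and 29124. SI3 and SI2 overlapped completely, and both lay below SI1. Mgam fell by 0.40 in SI3 relative to SI1 (SE 0.11, limma adjusted p = 0.0192). The call was lost without the HF-OO pool (adjusted p = 0.129), without the HF-SO pool (0.0957) and with no filter on dim probe sets (0.0883).

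Of the apical transporters, Slc5a1 encodes SGLT1, the sodium-coupled carrier of glucose and galactose. In the distal segment it had a signal of 24090 in HF-PO, 23026 in HF-OO and 21787 in HF-SO. SI2 had 26398, 28651 and 27164, and SI1 had 25474, 29080 and 32373. SI3 lay just below SI1, with a log2 change of -0.33 (SE 0.11, limma adjusted p = 0.0441) that was -0.08 in the HF-PO pool, the pool with the lowest SI1 signal. The call was lost without the HF-OO pool (adjusted p = 0.187), without the HF-SO pool (0.253) and with no filter (0.152).

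A second probe set annotated to Slc5a1 gave a larger difference. It read 11256, 10387 and 11170 in SI3, 15296, 21619 and 16011 in SI2, and 19859, 23363 and 26161 in SI1, again in the order HF-PO, HF-OO and HF-SO. Its log2 change in SI3 relative to SI1 was -1.07 (SE 0.15, limma adjusted p = 0.00132), so both probe sets fell but disagreed on the size. The brightest signals of Lct, Slc5a1 and Mgam reached 63.0%, 61.0% and 60.6% of the highest signal on their array, and whether such bright probe sets understate differences was not tested.

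Slc5a4a encodes SGLT3a, a relative of SGLT1 whose human counterpart has been described as a glucose sensor. Its signal in SI3 was 1144 in HF-PO, 915 in HF-OO and 873 in HF-SO. In SI2 it was 2576, 3002 and 2280, and in SI1 it was 2480, 3227 and 2696. SI2 and SI1 overlapped, and SI3 lay far below both. Slc5a4a fell by 1.50 in SI3 relative to SI1 (SE 0.14, limma adjusted p = 0.000249), a 2.84-fold difference.

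Slc2a5 encodes GLUT5, the fructose carrier. Its signal in SI3 was 1484 in HF-PO, 1371 in HF-OO and 1129 in HF-SO. The SI2 signals were 5654, 4387 and 2968, and in SI1 it was 12156, 10951 and 12050. The 3 segments were fully separated, and the middle one spread most (SD 1344, n = 3). Slc2a5 fell by 3.13 in SI3 relative to SI1 (SE 0.17, limma adjusted p = 2.45e-05), and the signal left in SI3 was 12.2%, 12.5% and 9.37% of that in SI1 in the HF-PO, HF-OO and HF-SO pools.

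Slc2a2 encodes GLUT2, the basolateral exit for all these sugars, which beta cells of the pancreas also use. Its signal in SI3 was 3858 in HF-PO, 3452 in HF-OO and 2293 in HF-SO. Its SI2 values were 14969, 15630 and 11442, and in SI1 it was 19859, 22900 and 23213. The segments did not overlap. Slc2a2 fell by 2.80 in SI3 relative to SI1 (SE 0.17, limma adjusted p = 4.13e-05), and 19.4%, 15.1% and 9.88% of the SI1 signal remained in the HF-PO, HF-OO and HF-SO pools. The insulin gene Ins2 of beta cells did not pass the filter on dim probe sets. It had signals of 15.4 to 24.0 in SI3, 7.2 to 17.1 in SI2 and 81.9 to 161 in SI1. Of the 2 tested genes of the endocrine pancreas, 1 was higher and 0 were lower in SI3 relative to SI1, against 25.0% and 19.2% of probe sets. The part of beta cells in the Slc2a2 result was not tested.

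All 7 members stayed called lower in SI3 when the SI1 array of HF-PO was left out, as were 3704 of 22519 probe sets. The log2 changes were then -3.26 for Slc2a5, -2.98 for Slc2a2, -1.98 for Treh, -1.64 for Slc5a4a, -0.85 for Lct, -0.50 for Mgam and -0.42 for Slc5a1. Exocrine pancreas genes moved the same way, with 9 of 10 lower in SI3. So did T cell genes, with 6 of 6 lower, and fibroblast and endothelium genes, with 5 of 7 lower. Of 5 macrophage genes 4 were lower and 1 was higher. In the other direction, 6 of 7 stem cell and crypt genes, 6 of 7 goblet cell genes and 3 of 3 Paneth cell genes were higher. The part of cell composition in the members' falls was not tested. Of epithelial structure genes, 4 of 12 were higher in SI3 and 0 were lower on the submitters' scaling, with a median log2 change of 0.25. Among all probe sets tested, 25.0% were called higher and 19.2% lower. With every array scaled on 7 epithelial genes, the median of all probe sets shifted to -0.13. The 7 members were again called lower, as were 6153 of 22519 probe sets.

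The middle segment divided the fall into a distal and a proximal step. Slc5a1 passed in neither step. In SI3 relative to SI2, 5 of 7 members fell, where 21.3% of probe sets were called and 10.8% were called lower. The log2 changes were -2.15 for Slc2a2 (SE 0.17), -1.66 for Slc2a5 (SE 0.17), -1.41 for Slc5a4a (SE 0.14), -1.40 for Treh (SE 0.16) and -0.80 for Lct (SE 0.11), with limma adjusted p from 0.000443 to 0.00403. The Lct call was lost without the HF-OO pool, at an adjusted p of 0.0583. Mgam had a log2 difference of 0.03 (SE 0.11, adjusted p = 0.845). Slc5a1 had -0.26 (SE 0.11, adjusted p = 0.141), although its second probe set fell by 0.67 (SE 0.15, adjusted p = 0.0194).

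In SI2 relative to SI1, 3 of 7 members fell, where 15.0% of probe sets were called and 6.92% were called lower. The log2 changes were -1.48 for Slc2a5 (SE 0.17, limma adjusted p = 0.00286), -0.66 for Slc2a2 (SE 0.17, adjusted p = 0.0443) and -0.44 for Mgam (SE 0.11, adjusted p = 0.0356). Only the Slc2a5 call was kept when any 1 pool was left out or the filter was dropped, with adjusted p from 0.0819 to 0.193 for Slc2a2 and Mgam without a pool. Treh had a log2 difference of -0.41 (SE 0.16, adjusted p = 0.130), Slc5a4a -0.10, Slc5a1 -0.07 and Lct 0.06. Exocrine pancreas genes were lower in SI2 for 9 of 10, and 0 of 12 epithelial structure genes were called in either direction.

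**Figure D2:**
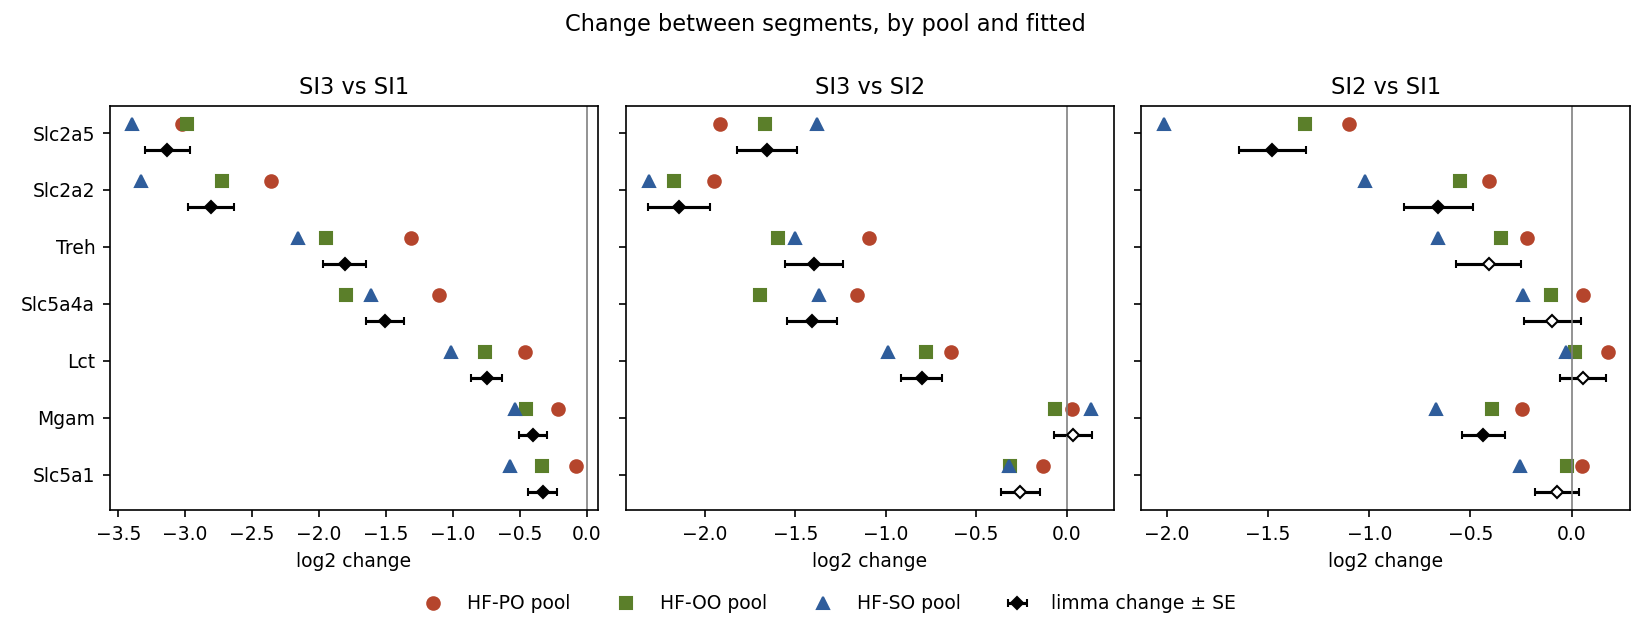
Log2 change of each measured gene between segments. Coloured points are the 3 diet pools, diamonds are the limma estimates with their SE, and filled diamonds have an adjusted p under 0.05. Slc2a5 falls in both steps, Slc2a2, Treh, Slc5a4a and Lct have larger estimates for SI3 relative to SI2 than for SI2 relative to SI1, and the Mgam estimate for SI3 relative to SI2 is near 0.

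The difference between the steps was tested directly, as SI2 minus the mean of SI1 and SI3, which is above 0 where more of the fall lies in the distal step. The estimates that passed were 0.74 for Slc2a2 (SE 0.15, limma adjusted p = 0.0441) and 0.66 for Slc5a4a (SE 0.12, adjusted p = 0.0356), where 3.72% of probe sets were called and 2.19% were called higher. Treh had 0.49 (adjusted p = 0.105), Lct 0.43 (0.0643), Slc5a1 0.09, Slc2a5 0.09 and Mgam -0.24 (0.208). Neither call held without 1 pool, whichever it was, or without the SI1 array of HF-PO, where Slc2a2 had 0.66 (adjusted p = 0.0778) and Slc5a4a 0.59 (0.066).

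Diets could be compared only as single pooled arrays within a segment, with no test. In the distal segment, HF-SO gave the lowest signal for 7 of 7 members, where 29.2% of probe sets were lowest in HF-SO, and HF-PO gave the highest for 6 of 7, against 32.1% of probe sets. The second Slc5a1 probe set was lowest in HF-OO there, at 10387 against 11170 in HF-SO. In SI2, HF-SO was lowest for 6 of 7 members, against 31.4% of probe sets. The SI2 count was 5 of 7 after quantile normalization, against 32.8% of probe sets, and 5 of 7 with epithelial scaling, against 25.2%. These counts come from 1 array each, and the members share whatever sets that array apart. Epithelial structure genes were lowest in HF-SO for 6 of 12 in SI3 and 5 of 12 in SI2. For other hydrolases of the brush border the counts were 9 of 12 in SI3 and 8 of 12 in SI2. For genes of sugar breakdown and glucose release they were 6 of 13 and 10 of 13, so low signals in HF-SO were not particular to the members.

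By the size of the gap, 2 values stood at least 1.5-fold from both other diets, both in SI3. Treh in HF-PO was 1.59-fold above HF-OO and 1.75-fold above HF-SO, a gap shown in that direction by 0.888% of probe sets. Slc2a2 in HF-SO was 1.51-fold below HF-OO and 1.68-fold below HF-PO, against 0.870% of probe sets. Each share covers 1 segment, 1 diet and 1 direction, and the other combinations had shares from 0.413% to 1.65%. The members were searched over every combination, so these single shares understate how often a gene is set apart somewhere. The share over all combinations was not counted. The widest span of a member was that of Slc2a5 in SI2, 1.90-fold from highest to lowest, with HF-OO between the others.

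**Figure D3:**
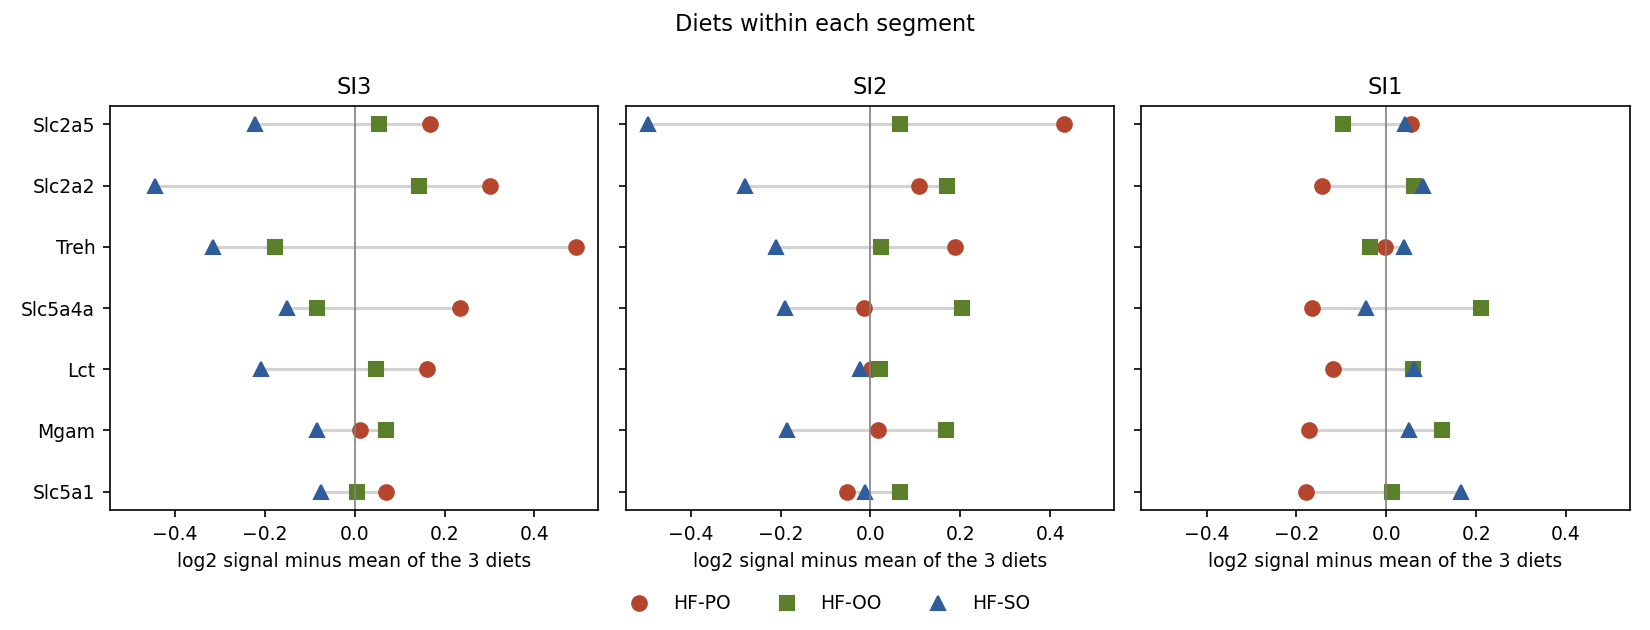
Log2 signal of each measured gene minus the mean of the 3 diets, within SI3, SI2 and SI1. Each point is 1 array of pooled RNA from 6 mice. HF-SO is lowest for 7 of 7 genes in SI3 and 6 of 7 in SI2, and HF-PO is lowest for 5 of 7 in SI1.

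In SI1 the order differed, with HF-PO lowest for 5 of 7 members, against 34.4% of probe sets. This is the array with high stomach and low epithelial signals. The count was 3 of 7 after quantile normalization, against 34.7% of probe sets. After scaling on 7 epithelial genes it was 1 of 7, against 9.82% of probe sets. The SI1 array of HF-PO enters the change of SI2 relative to SI1. This change was ordered HF-PO over HF-OO over HF-SO for 7 of 7 members, against 18.8% of probe sets. The order held for 5 of 7 after quantile normalization, against 19.4% of probe sets. After epithelial scaling it held for 2 of 7, against 6.35%. The second Slc5a1 probe set did not follow that order, with log2 changes of -0.38 in HF-PO, -0.11 in HF-OO and -0.71 in HF-SO. Leaving the HF-PO pool aside, the change in HF-OO was above that in HF-SO for 7 of 7 members, against 49.5% of probe sets. The gap was smallest for Lct, with 0.02 in HF-OO and -0.03 in HF-SO, and this count was not taken after epithelial scaling.

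A list of genes of sugar breakdown and glucose release in the cell covered fructose and galactose use, hexokinases, gluconeogenesis and glucose release. Of its 13 tested genes, 9 were lower and 1 was higher in SI3 relative to SI1, where 19.2% of probe sets were called lower and 25.0% higher. The median log2 change of the list was -0.62, against 0.07 over all genes tested. Of fructose breakdown, the fructokinase Khk changed by -1.68 (SE 0.10) and the triokinase Tkfc by -2.29 (SE 0.18). Of glucose release, the log2 changes were -3.34 for the gluconeogenic Fbp1 (SE 0.13), -2.46 for G6pc, the catalytic subunit of glucose-6-phosphatase (SE 0.20), and -1.70 for its partner transporter Slc37a4 (SE 0.10). Their limma adjusted p-values lay between 7.61e-06 and 0.000147. Pck1, which encodes the gluconeogenic enzyme PEPCK of the cytosol, had a smaller change of -0.78 (SE 0.15, adjusted p = 0.00536). It was highest in the middle segment, with means of 1057 in SI3, 3701 in SI2 and 1770 in SI1. Hk2, a hexokinase that starts glycolysis, rose by 1.55 (SE 0.13, adjusted p = 0.000178). HF-SO was the lowest diet in SI2 for 10 of these 13 genes, against 31.4% of probe sets.

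In a list of other sugar transporters and sweet taste genes, the 12 tested genes were all transporters. The sweet taste receptor genes Tas1r2 and Tas1r3 did not pass the filter on dim probe sets, and Gnat3 was not measured. Of the 12 transporters, 3 were higher and 0 were lower in SI3 relative to SI1. Among all probe sets tested, 25.0% were called higher and 19.2% lower, so the share called higher was not far from that of all probe sets. Slc45a4 rose by 0.94 (SE 0.11, limma adjusted p = 0.000728), Slc2a10 by 0.71 (SE 0.18, adjusted p = 0.0172) and Slc2a8 by 0.42 (SE 0.14, adjusted p = 0.0432). Slc5a4b, the close paralog of Slc5a4a, had signals of 3318, 2206 and 2343 in SI3, 5436, 4807 and 4872 in SI2, and 2501, 2934 and 2480 in SI1. It was thus highest in the middle segment, higher than in SI1 by 0.93 (adjusted p = 0.00985), where Slc5a4a had a log2 difference of -0.10 (adjusted p = 0.681). How far probes of these paralogs read each other's RNA was not tested.

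**Figure D4:**
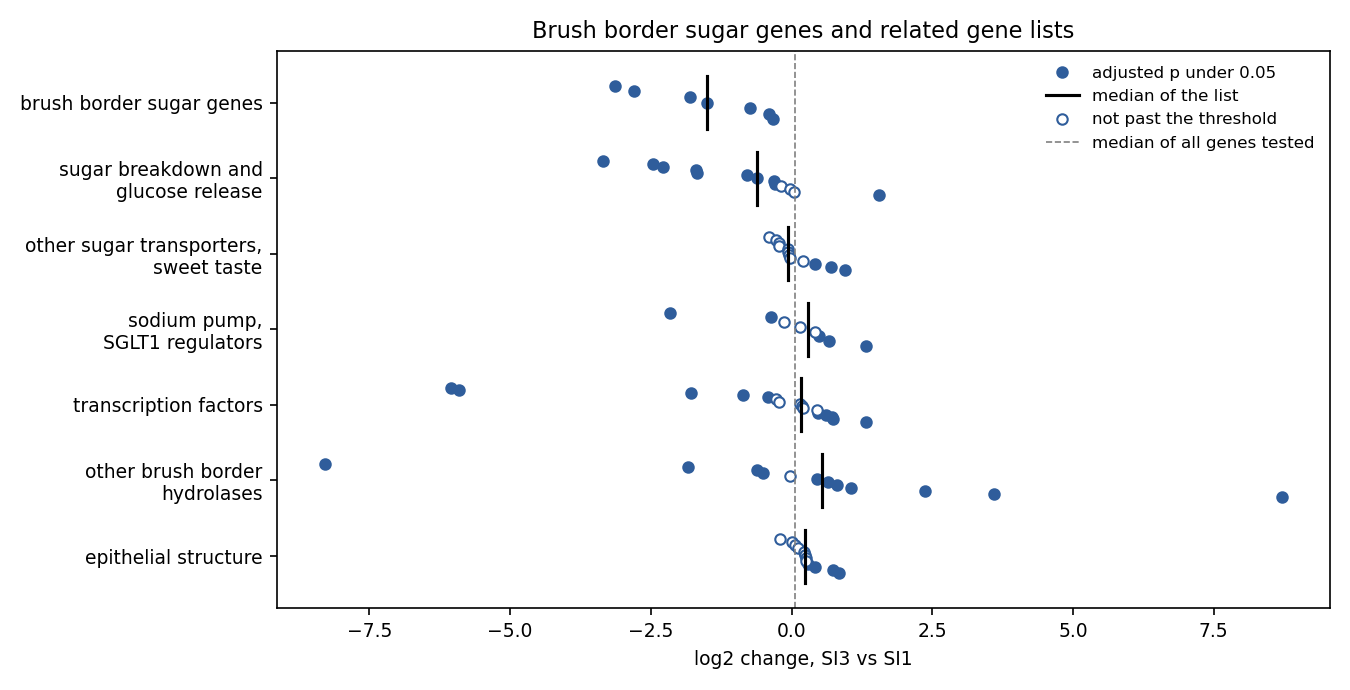
Log2 change in SI3 relative to SI1 for the tested genes of 7 lists. Each point is 1 gene, filled where the limma adjusted p is under 0.05, vertical bars are list medians and the dashed line is the median of all genes tested. The 7 brush border sugar genes lie wholly below 0, sugar breakdown genes mostly so, and the other lists have genes on both sides.

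Of 16 tested transcription factors known from enterocyte sugar genes, 5 were higher and 5 were lower in SI3 relative to SI1, shares not far from the 25.0% of probe sets called higher and 19.2% called lower. Gata4 changed by -1.79 (SE 0.13), Gata6 by -0.86 (SE 0.10) and Mlxipl, which encodes the carbohydrate-responsive factor ChREBP, by -0.42 (SE 0.11, limma adjusted p = 0.0192). The duodenal factors Pdx1 and Onecut2 had log2 changes of -5.91 (SE 0.13) and -6.04 (SE 0.42). Their SI3 signals were 15.3 to 19.0 and 4.4 to 70.9, near the added 16, so the size of both changes depends on that constant. In contrast, Cdx1 rose by 1.32 (SE 0.08), Gata5 by 0.74 (SE 0.10), Isx by 0.71 (SE 0.09), Foxa3 by 0.60 (SE 0.12) and Hnf4a by 0.47 (SE 0.10). Cdx2 had a log2 change of -0.23 (adjusted p = 0.119). Most of the Gata4 fall lay between SI2 and SI3, where it fell by 1.36 (SE 0.13), against a log2 difference of -0.42 (adjusted p = 0.0719) between SI2 and SI1.

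Across the 9 arrays, which share mice within a diet, the members' log2 signals followed each other to different degrees. Treh and Slc2a2 had the highest Pearson correlation, 0.98, and every pair with Mgam lay between 0.39 and 0.73. The genes most like Slc2a5 were Pgrmc1, Gpd1 and Fbp1 (r = 0.99 each), and those most like Treh were Slc25a45 and Lpgat1 (1.00) and Ephx2 (0.99). Those most like Slc2a2 were Gde1, Capn15 and Slc4a5 (1.00 each). Lct was most like Creb3l3 and Acbd4 (0.99) and Igsf23 (0.98), and Slc5a4a was most like Agmo, Tmem37 and Tmem230 (0.99 each). Slc5a1 was most like Arfgef2 (0.98), Igha and Cystm1 (0.97), and Mgam was most like Ahcyl2, Atp6v0e and 4931406C07Rik (0.96 each).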

How the data were processed

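RNA from 9 pools of 6 mice was hybridised to 9 arrays. Each deposited value is a signal intensity on a linear scale, credited to MAS5 per the submitters' processing notes, with no version. The 2% trimmed mean of every array was 500, so the authors' scaling was kept. Of 45101 deposited probe sets, 64 controls were left out; of the 45037 analysed, 34945 had 1 gene symbol in the platform annotation, 932 had several and 9160 had none. Array medians lay between 94.6 and 106.2.

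Signals were analysed as log2(signal + 16). The 22519 probe sets with a mean of at least 6.80, the median, were fitted with limma 3.58.1 in R 4.3.3, with segment and diet pool as terms, and two-sided moderated p-values were Benjamini-Hochberg adjusted over all of them. The pool is a block because its segments come from the same 6 mice, per the labels; departures from segment means correlated with r from -0.05 to 0.15 within a pool and from -0.13 to 0.05 between pools. Within a segment a diet is 1 array, so no p-value was computed. The residual also holds any difference of the segment effect between diets. The model was tested on simulated data.

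The members and lists were chosen with earlier results of these data known. Named are the members, genes of the lists, and for each member the 3 genes with the highest Pearson correlation. Alternatives were pseudocounts of 1 and 64, no filter, quantile normalization, scaling on 7 epithelial genes, no block, each pool left out, all probe sets of a gene averaged and a lower and a 2-fold gap between diets. Leaving out the SI1 array of HF-PO was added after seeing the data. Promoter windows are RefSeq's. Other steps ran in Python 3.11.15 with pandas 2.3.3 and numpy 2.4.6, and plots in matplotlib 3.10.9.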

Additional observations from a re-analysis of the deposited data

Results flagged for a closer look

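In 4 cases the diet pools moved in opposite directions between a pair of segments. Each pool is 1 array per segment, and the difference between pools was not tested. Lct in SI2 relative to SI1 changed by 0.18 in HF-PO, 0.02 in HF-OO and -0.03 in HF-SO on the log2 scale, a span of 0.20. Mgam in SI3 relative to SI2 changed by 0.03, -0.06 and 0.14 in the same order, a span of 0.20. Slc5a1 in SI2 relative to SI1 changed by 0.05, -0.02 and -0.25, a span of 0.30, and Slc5a4a there by 0.05, -0.10 and -0.24, a span of 0.29. None of these 4 changes passed the test over the 3 pools.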

How the results depend on the processing

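The called results of the members kept their direction under the alternatives run. Among those not called, 4 changed sign: Lct in SI2 relative to SI1 (0.06) was -0.0046 without the HF-PO pool and -0.04 without its SI1 array, and Mgam in SI3 relative to SI2 (0.03) was -0.11 after quantile normalization, -0.13 with epithelial scaling and -0.02 without the HF-SO pool. Slc5a1 in SI2 relative to SI1 (-0.07) was 0.01 without the HF-SO pool, and Slc2a5 against the mean of the ends (0.09) was -0.07 without the HF-PO pool. The counts of probe sets called were 9969 in SI3 relative to SI1 (5551 to 7581 with 1 pool left out), 3375 in SI2 relative to SI1 (537 to 811), 4787 in SI3 relative to SI2 (1317 to 2394) and 838 for SI2 against the mean of the ends (54 to 124). With no filter on dim probe sets they were 6768, 604, 1681 and 77, and with the SI1 array of HF-PO left out they were 8583, 1949, 4814 and 396. With no replicate block they were 10178, 3823, 5136 and 928, and the block changed no call of a member except Lct against the mean of the ends, called without it (adjusted p = 0.0384). Scaling on epithelial genes turned the split in SI3 relative to SI1 to 2343 higher and 6153 lower, from 5635 and 4334, and shifted the median of all probe sets to -0.13. The splits with that scaling were 803 higher and 3785 lower in SI3 relative to SI2 (2352 and 2435 without it), 1003 and 1321 in SI2 relative to SI1 (1817 and 1558), and 667 and 202 against the mean of the ends (494 and 344).

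Of the 3 members lower in SI2 than in SI1, 1 was left with no filter and without any 1 pool, and Slc2a2 missed at a pseudocount of 1 (adjusted p = 0.0518). Of the 2 members called against the mean of the ends, 1 was left at a pseudocount of 1. With no filter, without any 1 pool or without the SI1 array of HF-PO, 0 were left. At a pseudocount of 64 and after quantile normalization 3 were called, with Lct added (limma adjusted p = 0.0409 and 0.0182). With epithelial scaling 4 were called. Slc5a1 was called lower in SI3 than in SI2 after quantile normalization (adjusted p = 0.0163), with epithelial scaling (0.0221) and with its probe sets averaged (0.0349). The 2 diet values set apart were 1 at a pseudocount of 64 and with epithelial scaling, 5 at the lower fold threshold and 0 at 2-fold. Members lowest in HF-PO in SI1 were 3 after quantile normalization and 1 with epithelial scaling, against 34.7% and 9.82% of probe sets. Members with the pools in order in SI2 relative to SI1 were 5 after quantile normalization and 2 with epithelial scaling, against 19.4% and 6.35%. The cause of these differences was not tested. The number of arrays limits every value, and diets have no replicate.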

Other observations

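The other hydrolases of the brush border, which mostly split peptides, lipids and phosphate esters, were measured in the same libraries. Of 12 tested genes, 7 were higher and 4 were lower in SI3 relative to SI1, where 25.0% of probe sets were called higher and 19.2% lower. The median log2 change of the list was 0.55. The largest rise of the list was that of Plb1. It had signals of 13025, 12080 and 10181 in SI3 in HF-PO, HF-OO and HF-SO, against 9.1, 19.1 and 8.8 in SI1. The metalloprotease subunit Mep1a had a signal of 22368, 24817 and 22186 in SI3 in HF-PO, HF-OO and HF-SO, against 1796, 2135 and 1745 in SI1, and rose by 3.60 (SE 0.08, limma adjusted p = 1.32e-06). The peptidases Naaladl1, Dpp4, Enpep and Anpep rose by 2.37, 1.05, 0.82 and 0.64. In the other direction, the largest fall of the list was that of the alkaline phosphatase gene Akp3, with signals of 44.9, 68.7 and 61.7 in SI3, against 19552, 24924 and 24920 in SI1. Akp3 fell by 8.29 (SE 0.11, limma adjusted p = 2.29e-07). The neutral endopeptidase Mme fell by 1.83 (SE 0.12), the alkaline phosphatase gene Alpi by 0.61 (SE 0.11) and Ace by 0.50 (SE 0.11). Ace was highest in SI2, where it was above SI1 by 0.72 (adjusted p = 0.00834). HF-SO was the lowest diet for 9 of these 12 genes in SI3, against 29.2% of probe sets, and for 8 of 12 in SI2, against 31.4%.

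Of 8 tested genes of the sodium pump and of SGLT1 regulation, 3 were higher and 2 were lower in SI3 relative to SI1, shares not far from the 25.0% and 19.2% of probe sets called higher and lower. The sodium-proton exchanger Slc9a3 fell by 2.16 (SE 0.11, limma adjusted p = 2.35e-05), while the potassium channel Kcnq1 rose by 1.33 (SE 0.10) and its partner Kcne3 by 0.67 (SE 0.18). The scaffold gene Pdzk1 rose by 0.48 (SE 0.10). Atp1b1, which encodes the beta subunit of the sodium pump, had a log2 change of -0.13 (SE 0.11, adjusted p = 0.362).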
